A study of Mus musculus with 2 samples.

Results

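The genes of DNA replication licensing, the replication fork and deoxynucleotide supply were compared between primary macrophages and self-renewing macrophages of the mouse. The 48 genes were taken from a list of subunits and enzymes that was chosen with earlier results of these data known. They were identified by the transcript accession of their array probes, out of 22910 named genes with a probe. All 48 were detected on both arrays, that is, the scanner marked their probes as well above background, as were all of their 73 probes, and 15515 named genes were detected on at least 1 array.

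Both cultures were started from total bone marrow of C57BL/6 mice, given as male in the labels, and both received 100 ng/ml recombinant human M-CSF (rhM-CSF, the growth factor of macrophages). The primary macrophages were the adherent cells of day 5, and the self-renewing macrophages were those growing after passage 4. RNA of 1 culture of each kind was hybridised with 1 dye to an Agilent mouse expression array, so each cell type had 1 array. Neither culture carried an introduced gene or deletion, and the labels call neither a clone.

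A value is given as log2 of a probe's signal relative to the 75th percentile of all gene probes on its array, and a difference is the value in self-renewing macrophages minus that in primary macrophages. There were no replicates and no test was possible, so differences are described by size, with 2-fold (1 log2) as the limit. The only errors at hand were technical. The scanner's own error estimates, combined over both arrays, gave 0.20 to 0.30 log2 on the difference of a member's probe. Different probes of the same member varied by an SD of 0.17 log2 over 22 genes. Over all 5077 named genes with several probes detected on both arrays, this SD was 0.32 log2. These errors cover neither the variation between cultures nor that between mice. A level is compared only with the level of the same gene on the other array, since probes differ in how brightly they report.

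The labels and the sex-linked genes did not match. The Y-linked genes Eif2s3y, Kdm5d, Ddx3y and Uty were detected in the self-renewing culture only, and Xist, the RNA of the inactive X chromosome, in the primary culture only. A difference between cultures of different sex and one between the cell types cannot be told apart. Among the members, Pola1 alone lies on the X chromosome. The other 47 members gave a median difference of -0.91 log2, though leaving out Pola1 alone could hardly move a median. The part of sex in the differences of the members was not tested.

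Before a chromosome can be copied, the origin recognition complex (ORC) binds DNA and, with Cdc6 and Cdt1, loads the ring-shaped MCM helicase during G1, a step called licensing. At the start of S phase the kinase Cdc7 with Dbf4, together with Cdc45 and the GINS complex, turns the loaded rings into active helicases. DNA polymerases, the sliding clamp PCNA, its loader RFC and the single-strand binding protein RPA then work at the fork, fed by enzymes that make deoxynucleotides. Many of these genes are transcribed in waves in dividing cells, under E2F transcription factors, and some ORC subunits are known to be present through the whole cycle.

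In the self-renewing macrophages 46 of the 48 genes had a lower signal than in primary macrophages, or 42 with the authors' own scaling of the arrays, under which Orc2, Orc3, Gins3 and Pold3 were just above 0. The median difference was -0.91 log2, or 1.88-fold lower, and the 25th and 75th percentiles of the genes lay at -1.20 and -0.65 log2. Of all 14003 named genes detected on both arrays, 49.3% were lower, and their median difference was 0.01 log2. At the 2-fold limit 21 members were lower and 0 were higher. The same limit was passed downward by 8.38% of the 15515 named genes and upward by 4.76%, and among genes detected on both arrays the shares were 5.58% and 4.20%. Counted by probes, 67 of the 73 were lower in self-renewing macrophages. Of the 22 members with several probes, 19 had all of them lower, and in none did the probes differ by 2-fold from each other. RNA was taken from whole cultures, so fewer cells in S phase and less of these RNAs per cell cannot be told apart.

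**Figure D1:**
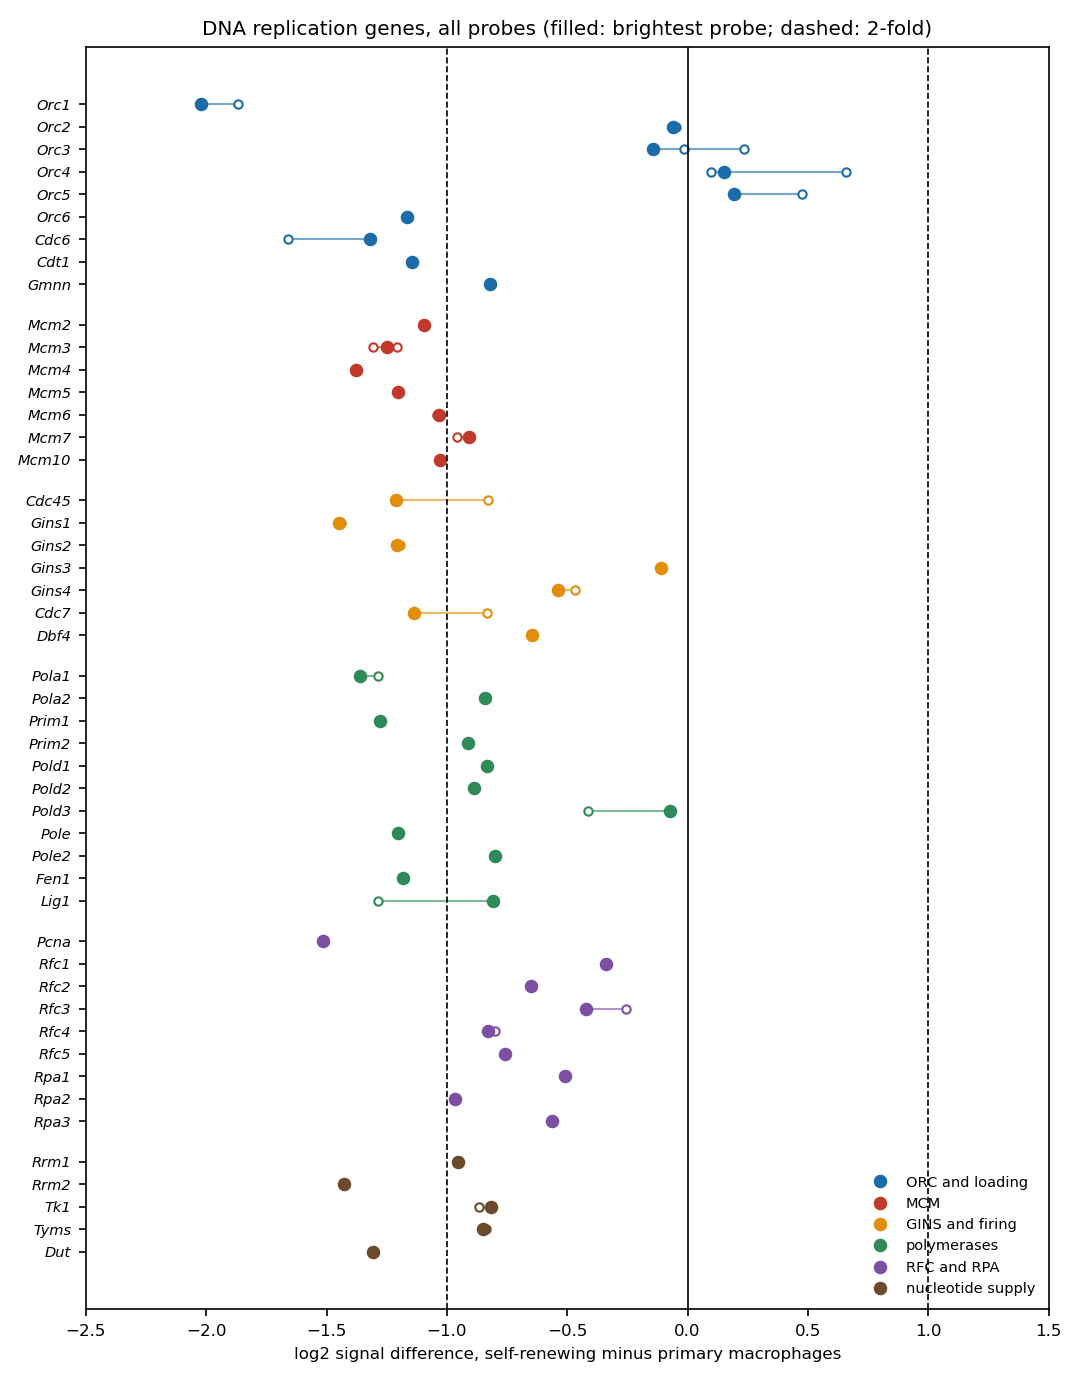
Log2 signal difference (x axis, self-renewing minus primary macrophages) of every probe of the 48 replication genes (rows, coloured by group), with 1 array for each cell type. Filled points are the probe that represents the gene, open points its other probes, and dashed lines mark 2-fold. Nearly all points lie left of 0, and the filled points of Orc2 to Orc5, Gins3 and Pold3 sit near it.

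The members of ORC divided into a pair that was clearly lower and a set of 4 near 0. Orc1, an ATP-binding subunit that is known to be regulated through the cell cycle, had a signal of -0.28 log2 in primary and -2.30 log2 in self-renewing macrophages. This was a difference of -2.02 log2, or 4.06-fold, the largest of the 48 genes, and its other probe gave -1.87 log2. Orc6, the smallest and most loosely bound subunit, was 3.09 log2 in primary and 1.92 log2 in self-renewing macrophages, a difference of -1.16 log2. On the probes that represent them, the core subunits Orc2 to Orc5 had a median difference of 0.05 log2 and reached from -0.14 to 0.19 log2. Orc2 stood at 0.40 and 0.34 log2 on the primary and self-renewing arrays, and its difference of -0.06 log2 was the nearest to 0 of all members. Orc5 stood at -1.69 and -1.50 log2, and its difference of 0.19 log2 was the highest of all members. The other probe of Orc5 gave 0.47 log2. The 3 probes of Orc3 gave -0.14, -0.02 and 0.23 log2, and those of Orc4 0.15, 0.66 and 0.10 log2. Orc3 was thus the 1 member whose probes pointed in both directions. These 4 genes were not 2-fold apart on any probe.

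The loading factors that act with ORC were lower. Cdc6, the ATPase that joins ORC to load the helicase, was 1.28 log2 in primary and -0.04 log2 in self-renewing macrophages, with differences of -1.32 and -1.66 log2 on its probes. Cdt1, which carries MCM rings to the origin, was 4.72 and 3.57 log2, a difference of -1.15 log2 or 2.21-fold. Geminin (Gmnn), the inhibitor that binds Cdt1 and keeps origins from being licensed again, was lower by less than 2-fold, at -0.82 log2 on both of its probes.

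Promoters of 5 members are shown because they set the most lowered loading genes beside ORC subunits that hardly differed and beside an MCM gene with many E2F words. Each runs 5′ to 3′ on the strand of the gene, from 250 bases before to 50 bases after a transcription start, in RefSeq's GRCm38.p6 assembly. Capitals mark E2F words (TTTCCCGC, TTTCGCGC, TTTGCCGC or TTTGGCGC) and CCAAT boxes (CCAAT), on either strand. Orc1 lies at chr4:108579204-108579503 (+ strand), Cdc6 at chr11:98907901-98908200 (+ strand), Orc3 at chr4:34614893-34615192 (- strand), Orc5 at chr5:22550289-22550588 (- strand) and Mcm6 at chr1:128359656-128359955 (- strand).
Orc1: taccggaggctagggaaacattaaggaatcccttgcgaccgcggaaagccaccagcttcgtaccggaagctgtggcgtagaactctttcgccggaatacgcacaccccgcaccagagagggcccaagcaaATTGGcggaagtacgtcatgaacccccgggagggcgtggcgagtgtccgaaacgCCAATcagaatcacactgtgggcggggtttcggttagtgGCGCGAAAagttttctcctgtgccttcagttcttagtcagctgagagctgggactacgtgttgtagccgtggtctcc
Cdc6: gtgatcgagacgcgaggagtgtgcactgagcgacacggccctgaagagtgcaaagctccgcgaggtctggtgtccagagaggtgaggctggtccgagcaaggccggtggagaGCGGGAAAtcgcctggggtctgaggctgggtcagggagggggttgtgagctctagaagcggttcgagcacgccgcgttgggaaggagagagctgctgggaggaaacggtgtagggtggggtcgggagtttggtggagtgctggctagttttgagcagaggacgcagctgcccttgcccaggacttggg
Orc3: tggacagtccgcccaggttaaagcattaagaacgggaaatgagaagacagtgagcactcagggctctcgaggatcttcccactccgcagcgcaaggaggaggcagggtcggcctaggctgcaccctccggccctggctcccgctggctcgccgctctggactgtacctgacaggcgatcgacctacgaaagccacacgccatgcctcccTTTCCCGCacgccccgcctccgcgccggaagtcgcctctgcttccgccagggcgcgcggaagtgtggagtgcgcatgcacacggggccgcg
Orc5: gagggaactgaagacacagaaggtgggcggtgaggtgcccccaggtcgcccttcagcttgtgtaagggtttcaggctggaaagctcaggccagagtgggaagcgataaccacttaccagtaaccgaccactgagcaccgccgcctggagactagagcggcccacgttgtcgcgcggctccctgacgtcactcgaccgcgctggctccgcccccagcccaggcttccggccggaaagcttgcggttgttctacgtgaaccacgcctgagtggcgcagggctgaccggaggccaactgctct
Mcm6: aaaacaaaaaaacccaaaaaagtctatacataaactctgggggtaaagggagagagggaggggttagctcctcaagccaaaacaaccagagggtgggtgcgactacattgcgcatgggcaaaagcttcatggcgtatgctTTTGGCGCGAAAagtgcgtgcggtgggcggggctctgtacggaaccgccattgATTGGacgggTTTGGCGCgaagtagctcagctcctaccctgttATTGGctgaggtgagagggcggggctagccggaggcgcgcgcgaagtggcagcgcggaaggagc

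The Orc1 window holds 1 E2F word that begins 27 bases before the start and 2 CCAAT boxes upstream of it. The Cdc6 window has its E2F word 138 bases before the start. Orc3, whose signal hardly differed between the arrays, also has an E2F word, 41 bases before the start, and the Orc5 window has neither word. In Mcm6, 3 E2F words were found at 110, 106 and 47 bases before the start, and the first 2 overlap on opposite strands.

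Promoter windows were at hand for 40 of the 48 genes. An E2F word was present in 15 of the 40, or 37.5%, and in 2.60% of the 27025 genes with a window. A CCAAT box was found in 57.5% of the 40 genes and 41.1% of all genes, and the CHR element (TTTGAA or TTCGAA), a word of genes expressed late in the cycle, in 22.5% and 21.7%. Neither base composition nor the number of windows per gene was matched in these shares. Of the 21 E2F matches, 14 began within 100 bases of the start. Members with and without an E2F word hardly differed in signal difference: the medians were -0.91 log2 over 15 genes and -0.89 log2 over 25 genes, and 7 and 10 of them were at least 2-fold lower. The genes with an E2F word reached from -2.02 log2 for Orc1 to -0.07 log2 for Pold3. Those without one reached from -1.52 log2 for Pcna to 0.19 log2 for Orc5. A match is a run of letters and not a measured binding site.

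**Figure D2:**
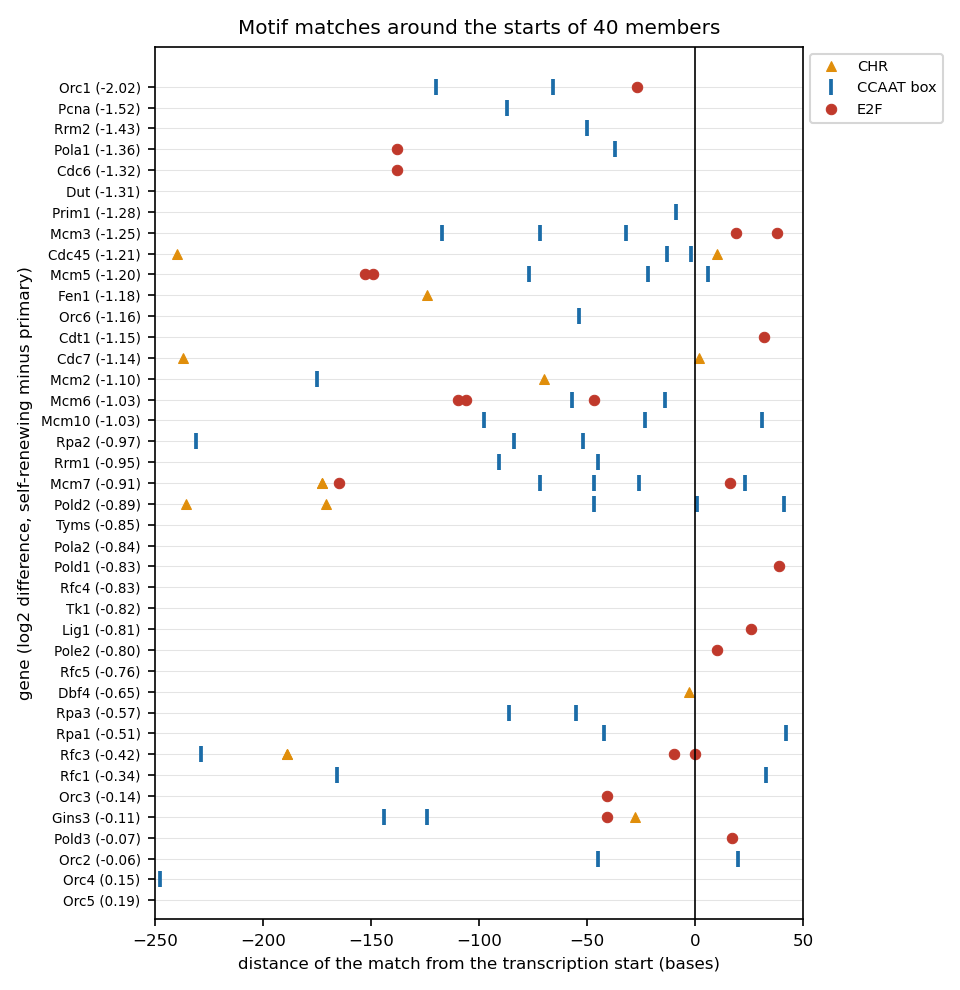
Positions of E2F words (circles), CCAAT boxes (bars) and CHR words (triangles) from the transcription start (x axis, bases), for the 40 members with a promoter window. Genes are ordered from the most lowered (top) to the highest (bottom) by the log2 difference given beside the name, and windows of a gene with several starts are drawn on 1 line. E2F words occur from Orc1 at the top to Pold3 near the bottom, and Orc2, Orc4 and Orc5 below it have none.

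The MCM genes were the most even group. The subunits Mcm2 to Mcm7 form the 6-part ring of the replicative helicase, and Mcm10 joins it when the origin fires. All 7 genes were lower, with a median of -1.10 log2 and a range from -1.38 to -0.91 log2, and 6 of the 7 were at least 2-fold lower. Mcm4 was 4.42 log2 in primary and 3.04 log2 in self-renewing macrophages, a difference of -1.38 log2. Mcm3 was 4.93 and 3.68 log2, and its 3 probes agreed at -1.25, -1.31 and -1.21 log2. Mcm5 was 3.95 and 2.75 log2, lower by 2.30-fold. The ring's other members stood closer to the limit. Mcm2 was 2.11 and 1.01 log2, a difference of -1.10 log2. Mcm6 was 6.11 and 5.08 log2, a difference of -1.03 log2. Mcm7 was 4.30 and 3.39 log2, and its difference of -0.91 log2 fell just short of 2-fold. Mcm10 was 3.38 and 2.35 log2, a difference of -1.03 log2. All 6 ring subunits thus lay within 0.47 log2 of each other, a far narrower range than that of the 6 ORC subunits, 2.21 log2.

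The genes that fire the licensed origins had a median of -1.14 log2 over 7 genes, and 4 were at least 2-fold lower. Cdc45, which completes the active helicase together with MCM and GINS, was -0.19 log2 in primary and -1.40 log2 in self-renewing macrophages. Its probes gave -1.21 and -0.83 log2, on both sides of 2-fold. Cdc7, the kinase that phosphorylates the MCM ring, was 1.78 and 0.64 log2, and its probes also lay on both sides of 2-fold, at -1.14 and -0.83 log2. Its activating subunit Dbf4 differed by -0.65 log2.

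The 4 GINS subunits, which act as 1 complex, did not differ alike. Gins1 was 2.50 log2 in primary and 1.05 log2 in self-renewing macrophages, with -1.45 and -1.44 log2 on its probes. Gins2 was 3.09 and 1.88 log2, a difference of -1.21 log2. Gins4 was lower by 0.54 log2. Gins3 was 4.89 and 4.78 log2, and its difference of -0.11 log2 was smaller than the SD between probes of a member. The gap between Gins1 and Gins3 was 1.34 log2.

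**Figure D3:**
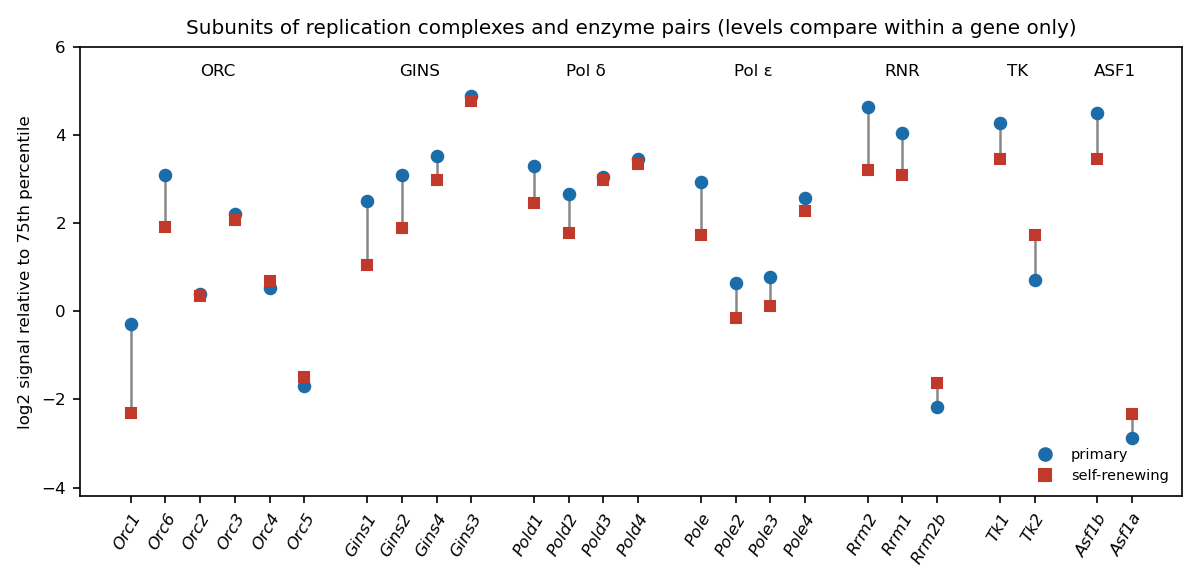
Log2 signal relative to the array's 75th percentile (y axis) of subunits of ORC, GINS and DNA polymerases delta and epsilon and of enzyme pairs of ribonucleotide reductase (RNR), thymidine kinase (TK) and ASF1, in primary (circles) and self-renewing macrophages (squares), 1 array each. Only the 2 points of a gene can be compared. Orc2 to Orc5, Gins3, Pold3 and Pold4 have overlapping points beside partners that were lower in self-renewing macrophages, and Rrm2b, Tk2 and Asf1a were higher there.

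All 11 genes of the polymerases and of lagging-strand processing were lower, with a median of -0.89 log2, and 4 were at least 2-fold lower. Polymerase alpha with primase starts each new strand. Its catalytic subunit Pola1 was 2.42 log2 in primary and 1.06 log2 in self-renewing macrophages, with probes at -1.36 and -1.29 log2. The primase subunit Prim1 was 3.36 and 2.08 log2, a difference of -1.28 log2. Their partners Prim2 and Pola2 differed by -0.91 and -0.84 log2. The polymerase epsilon catalytic subunit Pole, which copies the leading strand, was 2.93 and 1.72 log2, a difference of -1.20 log2. Its second subunit Pole2 differed by -0.80 log2. The small subunits Pole3 and Pole4, which were not among the 48 genes, differed by -0.67 and -0.29 log2.

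The subunits of polymerase delta, which copies the lagging strand, were each lower by less than 2-fold. Pold1, the catalytic subunit, differed by -0.83 log2 and Pold2 by -0.89 log2. Pold3 was 3.05 and 2.97 log2 on the primary and self-renewing arrays, and its probes gave -0.07 and -0.41 log2. Pold4, which was not among the 48 genes, differed by -0.11 log2. Fen1, the nuclease that trims the flaps between Okazaki fragments, was 5.01 and 3.82 log2, a difference of -1.18 log2. Lig1, the ligase that seals them, was represented by a probe at -0.81 log2, whereas its other probe gave -1.29 log2.

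Within the clamp, its loader and RPA, Pcna stood apart from the rest. Pcna, the sliding clamp that holds polymerases on DNA, was 6.96 log2 in primary and 5.44 log2 in self-renewing macrophages. This difference of -1.52 log2, or 2.86-fold, was the second largest of the 48 genes and rested on 1 probe. The 5 subunits of the clamp loader RFC had a median of -0.65 log2 and none was 2-fold lower. Rfc1, the large subunit, was 3.08 and 2.74 log2, and at -0.34 log2 it was the nearest to 0 of this group. Rfc4 was the lowest of the loader at -0.83 log2. The 3 subunits of RPA, which coats single-stranded DNA in repair as well as in replication, had a median of -0.57 log2. Rpa2 came closest to the limit, at -0.97 log2.

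All 5 enzymes of deoxynucleotide supply were lower, with a median of -0.95 log2. Rrm2, the subunit of ribonucleotide reductase that is made in S phase, was 4.63 log2 in primary and 3.20 log2 in self-renewing macrophages, a difference of -1.43 log2 or 2.69-fold. Its partner Rrm1 differed by -0.95 log2. Rrm2b, the p53-regulated form of the small subunit that serves cells outside S phase, was -2.16 and -1.63 log2, higher in self-renewing macrophages by 0.53 log2. Dut, which removes dUTP, was 1.81 and 0.51 log2, a difference of -1.31 log2. Thymidylate synthase (Tyms) was lower by 0.85 log2. Tk1, the thymidine kinase of S phase cells, was 4.28 and 3.46 log2, and at -0.82 log2 it was the highest of the group. Tk2, its mitochondrial counterpart, was 0.71 and 1.72 log2, higher in self-renewing macrophages by 1.01 log2.

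**Figure D4:**
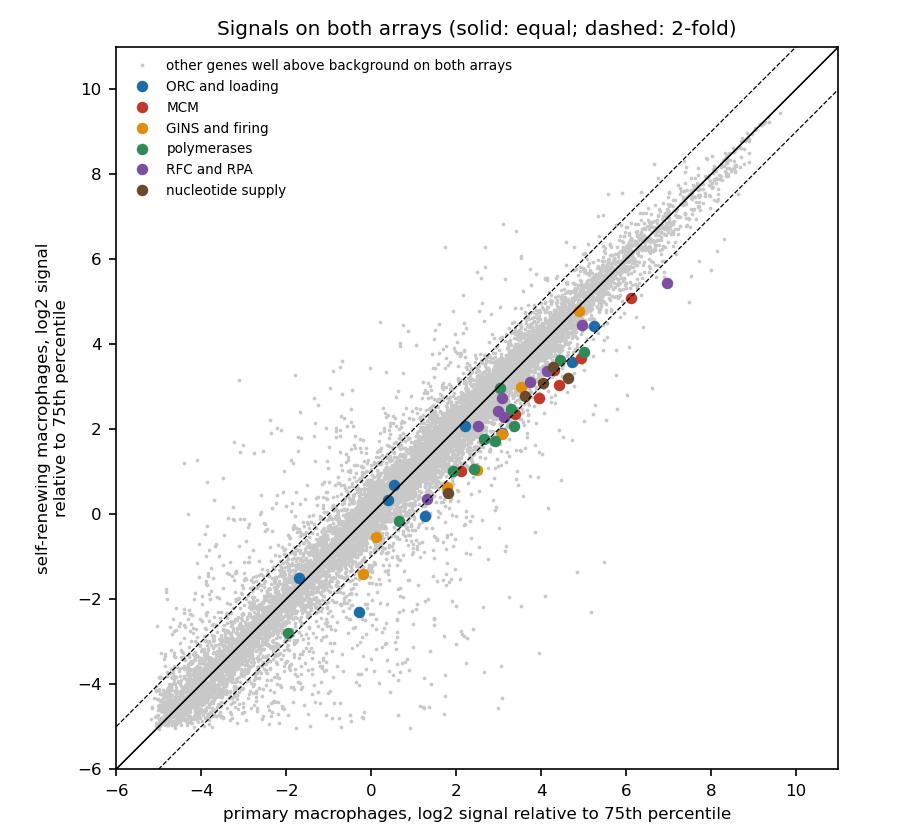
Log2 signal relative to the array's 75th percentile in primary macrophages (x axis) and self-renewing macrophages (y axis) for 14003 genes detected on both arrays (grey) and for the 48 replication genes (coloured by group). The solid line marks equal signal and the dashed lines 2-fold. Of the replication genes 46 lie below the line of equal signal, 21 of them at least 2-fold lower and the others within the dashed lines. Orc2 to Orc5, Gins3 and Pold3 lie close to the line of equal signal.

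The pattern was also read in genes of the same pathways outside the 48. These lists come from the same arrays and were chosen with earlier results of these data known, so they are no independent support. Of 42 other licensing and fork genes, all detected on both arrays, 38 were lower, with a median of -0.82 log2. At least 2-fold lower were 17 (40.5%) and higher 0, beside 5.58% and 4.20% of all named genes detected on both arrays. The 5 largest differences were those of Uhrf1, which binds hemimethylated DNA behind the fork (-1.60 log2), Clspn, the mediator of the replication checkpoint (-1.57 log2), Wdhd1, which couples polymerase alpha to the helicase (-1.42 log2), Dtl, which directs the destruction of Cdt1 (-1.36 log2), and Dscc1, a part of an alternative clamp loader (-1.35 log2). The histone chaperone Asf1b was 4.51 and 3.45 log2, a difference of -1.06 log2, while its paralog Asf1a was higher in self-renewing macrophages by 0.53 log2.

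Other enzymes of nucleotide metabolism gave a smaller shift. Of 32 genes, 24 were lower, 3 were at least 2-fold lower and 1 at least 2-fold higher, with a median of -0.29 log2. The 3 genes made up 9.4% of the list, near the 8.38% of all named genes that passed this limit downward. Upward it was passed by 4.76% of all named genes. The lower genes included Impdh1 (-1.06 log2) and Pfas (-1.01 log2), both enzymes of purine synthesis, and the higher one was Tk2. Samhd1, which degrades deoxynucleotides, was 5.01 and 5.10 log2, a difference of 0.09 log2, with other probes down to -0.26 log2. Dck, the salvage kinase of deoxycytidine, differed by 0.17 log2.

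Among genes that act before and after S phase, all 20 of a list of mitosis genes were lower, with a median of -0.64 log2. Only 1 of them, Aurkb (-1.08 log2), was past 2-fold. This was 5% of the list, near the 5.58% of all named genes detected on both arrays that passed this limit downward. Of 24 regulators of the G1/S transition, 18 were lower, with a median of -0.75 log2. At least 2-fold lower were 6 (25%), and 0 were at least 2-fold higher, beside 8.38% and 4.76% of all named genes. Cdkn1a, which encodes the CDK inhibitor p21, a protein that also binds PCNA, was 4.10 log2 in primary and -1.92 log2 in self-renewing macrophages, a difference of -6.02 log2. Its other probe gave -4.30 log2. The other large differences were those of the cyclins Ccnd2 (-3.33 log2) and Ccne1 (-2.04 log2), of Ccne2, which was detected in primary macrophages only and was at least 3.01-fold lower, and of the repressors E2f7 (-1.38 log2) and E2f8 (-1.21 log2). The other D cyclins, Ccnd1 (0.65 log2) and Ccnd3 (0.17 log2), were higher in self-renewing macrophages by less than 2-fold. With the normexp background correction the difference of Ccne2 was -0.44 log2, short of 2-fold. The probes of E2f7 reached from -1.38 to -0.37 log2, and their mean of -0.88 log2 was also short of it.

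**Figure D5:**
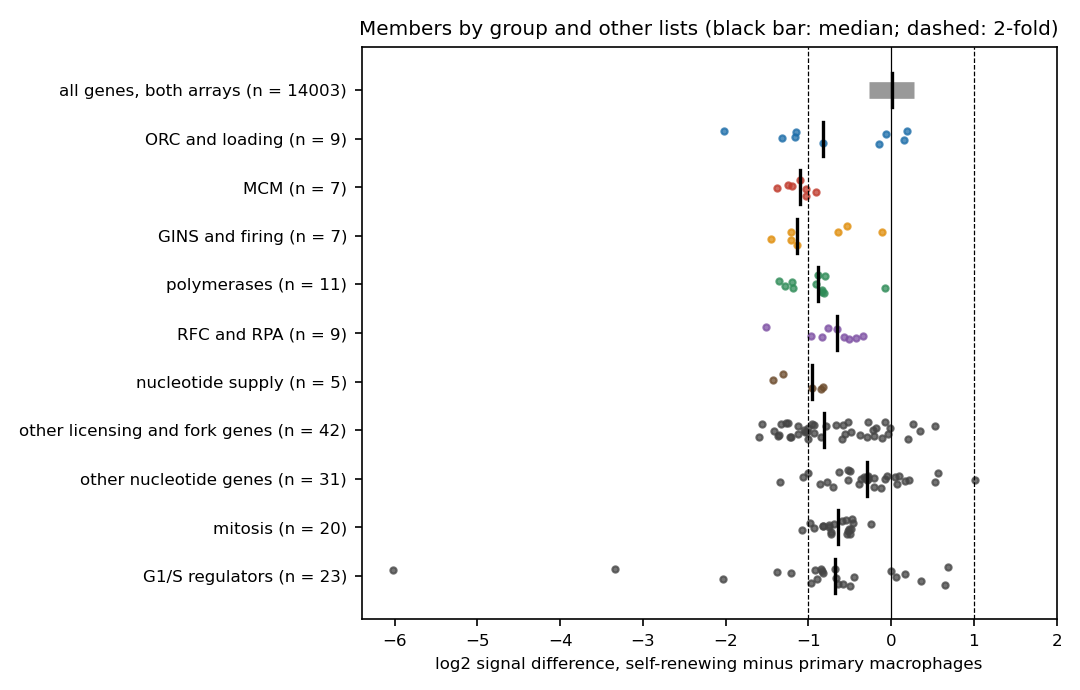
Log2 signal difference (x axis, self-renewing minus primary macrophages) of each gene, for the 6 groups of members (coloured) and 4 other lists (dark grey), with the number of genes detected on both arrays. Black bars are medians, and for all 14003 genes the grey bar spans the 25th to 75th percentile. The medians of the member groups lie between -1.14 and -0.65 log2 and that of all genes at 0.01 log2.

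All 12 macrophage markers, among them Csf1r, Adgre1 and Cd68, were detected on both arrays. Their median difference was 0.26 log2, with a range from -1.88 log2 for Marco to 2.23 log2 for Mertk, and Marco and Fcgr1 (-1.76 log2) were at least 2-fold lower in self-renewing macrophages. Several marker lists of other cells had a lower sum in self-renewing macrophages, as the replication genes did, and others did not. Of 10 neutrophil markers 8 were detected, 7 of them lower in self-renewing macrophages, and their signals, in multiples of the array's 75th percentile, summed to 104 in primary and 6.45 in self-renewing macrophages. Of the remaining 2, Retnlg was detected on neither array and Ly6g had no matched probe. Of 6 progenitor markers 5 were detected, Kit, Flt3 and Myb in primary macrophages only, and the sums were 0.62 and 0.20. Of 8 erythroid markers 6 were detected, with Alas2 among those found on neither array, and the sums were 5.02 and 1.95. Most of both sums came from Tfrc, at 1.70 and 0.29 log2. Of the 6 markers 5 were lower, among them Hba-a1 (-1.71 log2), and Klf1 (0.02 log2) hardly differed. Of 6 mast cell and megakaryocyte markers 4 were detected, with sums of 256 and 54.3, nearly all of it from Pf4. Of 6 B cell markers 4 were detected, with sums of 1.93 and 0.29, and Cd79b, detected in primary macrophages only, made up most of that gap, while Cd79a (0.41 log2) and Pax5 (-0.03 log2) were not 2-fold apart. The sums hardly differed for T and NK cell markers (2.45 and 2.38, 3 of 6 detected). Stromal and endothelial markers had a higher sum in self-renewing macrophages (0.36 and 0.46, 3 of 7 detected). Of 6 dendritic cell markers 5 were detected, with sums of 195 and 207, nearly all of it from Siglech (0.09 log2). Among the rest, Batf3 (-1.79 log2) was lower in the self-renewing culture and Zbtb46 (0.62 log2) higher. Ccr7 (-4.15 log2) and Flt3 (-0.41 log2) were detected in primary macrophages only. The part of such cells in the lower replication signals was not tested.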

How the data were processed

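RNA of 1 primary and 1 self-renewing macrophage culture was measured on 1-colour Agilent arrays. The authors deposited scanner output (Agilent Feature Extraction 11.5.1.1) with the raw and background-corrected intensity of each spot, flags and an error estimate. They also deposited a table of these intensity values times 1 constant per array (1.07 and 1.19), whose origin is not given in the sources used here.

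The log2 signal was the background-corrected intensity divided by the 75th percentile of the array's gene probes (434 and 446). Controls and the 63 gene spots per array that the scanner flagged as outliers were removed, and 0 gene spots were saturated. Of 56598 probes, 34807 were detected in primary and 33095 in self-renewing macrophages, and accessions in a GRCm38.p6 table named 32988. The brightest probe by the mean of both arrays represented a gene. Where only 1 array detected a gene, the other was set to its dimmest detected signal, or to the probe's own signal if brighter, and the fold is a lower bound. The number of arrays limits the precision, and no test was made. The calculation was tested on simulated data. Results for some genes are not reported.

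The members, lists and motifs were chosen with earlier results of these data known. Both signals are given for members at least 2-fold apart and for the nearest to 0 and the highest of each group. Of other lists, genes at least 2-fold apart are named, at most 5 in each direction, besides Cdkn1a, Rrm2b and Samhd1. Pole3, Pole4, Pold4, Asf1a, Asf1b, Dck and E2f8 were named after their values were seen, and the check of sex-linked genes was added then.

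The 9 alternatives were quantile normalization, scaling to the 75th percentile or the median of probes detected on both arrays, the authors' scaled values, normexp (offset 50, median spot signal and local background), no filter, genes detected on both arrays only, and the mean or median over a gene's probes. Tools were R 4.3.3, limma 3.58.1, Python 3.11.15, matplotlib 3.10.9, numpy 2.4.6, scipy 1.17.1 and pandas 2.3.3.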

Additional observations from a re-analysis of the deposited data

How the results depend on the processing

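No paired analysis was possible because primary and self-renewing macrophages had 1 array each. The median of the 48 genes stayed between -0.94 and -0.72 log2, 42 to 46 of them were lower and 14 to 21 at least 2-fold lower, and 0 were at least 2-fold higher under the 9 alternatives. The authors' scaled values moved the median of all genes to 0.17 log2, and all list medians with it: to -0.72 log2 for the 48 genes, -0.91 for MCM, -0.63 for ORC and loading, -0.95 for GINS and firing, -0.70 for polymerases, -0.46 for RFC and RPA, -0.77 for nucleotide supply, -0.63 for the other licensing and fork genes, -0.10 for the other nucleotide genes, -0.45 for mitosis and -0.56 for the G1/S regulators. Under these values 10 of the other licensing and fork genes, 1 of the other nucleotide genes and 0 of the mitosis genes were at least 2-fold lower. Orc2, Orc3, Gins3 and Pold3 turned to 0.13, 0.04, 0.08 and 0.11 log2, and Orc3 was also above 0 with the mean over its probes. Tk2 fell below 2-fold, leaving 0 such genes, when arrays were scaled to the 75th percentile or to the median of probes detected on both arrays, and with normexp. Samhd1 reached from -0.22 to 0.28 log2 over the alternatives.

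Of all named genes, 750 were at least 2-fold lower and 429 higher with normexp, 2336 and 1192 with no filter on background, and 782 lower when a gene had to be detected on both arrays. The authors' scaled values gave 1069 lower and 1035 higher, so that 49.2% of these genes were higher in self-renewing macrophages, against 36.2% as reported. Of 432 values of single members, 372 changed by under 0.17 log2, which was the SD between probes of a member. Of the 60 others, 48 came from the authors' scaled values. With no filter, 0 members moved by more than that SD, since all their probes were detected.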
